A study of Mus musculus with 18 samples.

Results

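Polycomb repressive complex 2 (PRC2) is described here through the mRNAs of 10 of its subunits, Ezh2, Ezh1, Eed, Suz12, Rbbp4, Rbbp7, Aebp2, Jarid2, Mtf2 and Phf1. They were taken by gene symbol from the 54446 gene identifiers of each count table, and all 10 were found and passed the filter on low counts in every fit. PRC2 places methyl groups on lysine 27 of histone H3, and the trimethylated form (H3K27me3) marks silent developmental genes. EZH2 or EZH1 is the catalytic subunit, EED and SUZ12 are needed for its activity, and RBBP4 or RBBP7 binds histones. AEBP2 and JARID2 define one form of the complex, and the Polycomb-like proteins PHF1 and MTF2 define the other. The KDM6 demethylases remove the mark. Only mRNA was measured in these samples, not protein or H3K27me3.

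The samples were 18 libraries of C57BL/6 mouse cells labelled as embryoid bodies, aggregates that embryonic stem cells form in suspension, after 7 days of differentiation without feeder cells. They fell into 6 groups of 3: control, CKO, and CKO with 5 μM GSK343 for the Mettl14 line, and control, CKO, and CKO with 5 μM GSK-J4 for the Mettl3 line. METTL14 and METTL3 form the enzyme that writes N6-methyladenosine on RNA, and the series' text calls the Mettl14 line a knockout. GSK343 inhibits EZH2 and GSK-J4 inhibits the KDM6 demethylases, so one inhibitor acts on the enzymatic activity of the complex itself and the other on the enzymes that oppose it. Per the labels' protocols, the CKO cells were treated with DMSO or inhibitor. Whether the controls received DMSO, how the CKO was made, which exons it removes, how many clones were used and whether replicates were separate cultures is not given in the sources used here, so p-values measure the spread between these libraries, which may be technical.

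The depth of the libraries lay between 721853 and 32540164 total counts, and 2 were under 2000000, Mettl14 CKO replicate 3 and Mettl14 CKO with GSK343 replicate 3. Levels are CPM, counts scaled to a common library total with TMM factors over the 18 libraries. The targeted genes did not separate the libraries labelled CKO from their controls. Mettl14 ran from 17.7 to 19.2 CPM in its 3 controls and from 17.1 to 24.6 in the libraries labelled Mettl14 CKO (log2 change 0.21 ± 0.37 SE, edgeR adjusted p = 1.00). Mettl3 ran from 18.8 to 34.2 CPM in its controls and from 6.90 to 26.0 in the libraries labelled Mettl3 CKO (log2 change -0.53 ± 0.63 SE, edgeR adjusted p = 1.00). The counts are per gene, so transcripts that lack the deleted exons could still be counted and these levels check the label in neither line; the groups are named here by their labels. The cell type markers did not clearly match the embryoid body label. All 6 embryonic stem cell markers, all 4 endoderm markers and 3 of 4 mesoderm markers had a median under 1 CPM over the 18 libraries. Of the 4 ectoderm markers 2 did, while Nes had a median of 53.4 CPM and Tubb3 of 4.10 CPM. Fibronectin (Fn1) had a median of 7411 CPM and the collagen gene Col1a1 of 5561 CPM.

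Scaled to the length of their merged exons, the histone-binding subunits gave the highest levels and the catalytic subunits were among the lowest. Rbbp7 ranked first in all 6 groups, with group means from 44.1 to 61.0 CPM per kb, and no library of Rbbp4 reached any library of Rbbp7 within a group. Rbbp4 came next in 5 groups, at 16.0 to 21.3 CPM per kb, and behind Suz12 with GSK-J4. Eed, Suz12, Aebp2, Mtf2 and Phf1 formed a middle range. Outside the GSK-J4 group their group means lay between 6.07 CPM per kb (Aebp2 in Mettl14 CKO) and 11.3 CPM per kb (Eed in Mettl14 CKO), and most neighbours in the order had overlapping libraries. Ezh1 (3.53 to 5.38 CPM per kb over all 6 groups) and Jarid2 (2.06 to 4.23) lay below them, and with GSK-J4 Phf1 stood in their range, at 3.81. Ezh2 was lowest in 5 groups, at 1.54 ± 0.78 (SD, n = 3) to 2.28 ± 0.76 CPM per kb, and seventh with GSK-J4, at 4.86 ± 2.95. With the longest transcript in place of the merged exons, Jarid2 took the lowest rank in 5 groups, so the order of Ezh2 and Jarid2 depends on the length used. Other ranks moved as well. With GSK-J4, Suz12 took rank 5 (25.3 CPM per kb), behind Rbbp4 (39.5). In the Mettl3 controls Ezh1 took rank 5 (9.52), above Mtf2, Phf1 and Suz12.

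**Figure D1:**
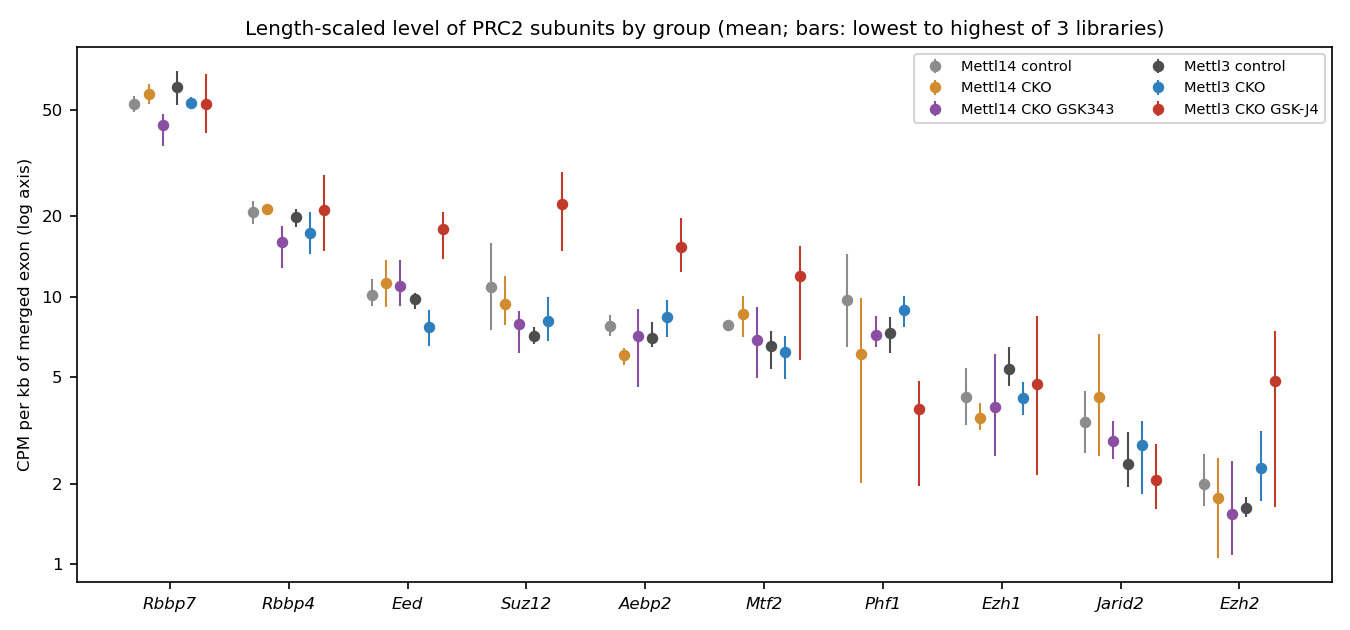
Level of each PRC2 subunit per kilobase of merged exon, on a log axis, in the 6 groups. Points are means of 3 libraries and bars run from the lowest to the highest library. Rbbp7 is on top in every group, at 44.1 to 61.0 CPM per kb. The means of Suz12, Eed, Aebp2, Mtf2 and Ezh2 are highest with GSK-J4. The GSK-J4 bars of Eed and Aebp2 lie above those of all other groups, while those of Suz12, Mtf2 and Ezh2 overlap some.

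The subunits differed in how steady they were over the 15 libraries without GSK-J4. Rbbp4 and Rbbp7 spanned 1.79-fold and 1.90-fold from the lowest to the highest library, and Eed, Mtf2 and Aebp2 about 2.1-fold (2.11, 2.04 and 2.13). Ezh2 spanned 2.99-fold, Jarid2 3.95-fold and Phf1 7.18-fold. The lowest values of Phf1 and Ezh2 rest on few reads. Mettl14 CKO replicate 3 held 8 counts of each, and Mettl14 CKO with GSK343 replicate 3 held 5 counts of Ezh2.

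The first comparison asked whether the libraries labelled CKO differed from their controls, and no subunit was called in either line (adjusted p under 0.05, edgeR quasi-likelihood test, Benjamini-Hochberg over all genes tested). In the Mettl14 line the 10 log2 changes ran from -0.57 (Phf1) to 0.28 (Jarid2), 5 of them above 0, with a median of -0.02 against 0.01 for all genes. No gene was called there (percent called 0 of 13882 genes tested), although for 208 genes the unadjusted p was under 0.05. Neither DESeq2 nor limma voom called a gene, and no subunit had an unadjusted p under 0.05.

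Ezh2 stood at 17.2, 11.02 and 11.6 CPM in the Mettl14 controls and at 11.7, 16.6 and 7.04 in the libraries labelled Mettl14 CKO. Its groups overlapped, and the interval of the difference (log2 -0.10, 95% interval -1.11 to 0.91) leaves room for a change of about 1 log2 unit in either direction. Eed, which reads the methyl mark and stimulates the enzyme, stood at 44.5, 35.5 and 37.0 CPM in the controls and at 41.4, 35.2 and 52.8 in the CKO libraries. Suz12, the scaffold of the core, stood at 78.6, 46.4 and 37.2 against 41.5, 38.9 and 59.0 CPM. Both overlapped between the groups, and Suz12 in control replicate 1 was the highest of the 15 libraries without GSK-J4. Aebp2, a zinc-finger cofactor, was the only subunit whose groups did not overlap, with 83.9, 70.1 and 75.6 CPM in the controls and 54.6, 61.3 and 63.4 in the CKO libraries. That difference did not pass the test (log2 -0.34 ± 0.26 SE, edgeR adjusted p = 1.00), and 7.68% of all genes had groups without overlap in this comparison.

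In the Mettl3 line the log2 changes of CKO against control ran from -0.37 (Ezh1) to 0.49 (Ezh2), 5 of 10 above 0, with a median of 0.06 against -0.01 for all genes. None of the 16782 genes tested was called (percent called 0), and 315 genes (1.88%) had an unadjusted edgeR p under 0.05. DESeq2 called 2 genes higher and 3 lower and limma voom called 3 higher and 3 lower, none of them a subunit. Ezh2 read 10.02, 10.7 and 11.9 CPM in the Mettl3 controls and 11.5, 21.1 and 13.2 in the libraries labelled Mettl3 CKO. Eed was the only subunit whose groups did not overlap. It read 39.6, 34.6 and 39.0 CPM in the controls and 29.8, 25.1 and 34.1 in the CKO libraries (log2 -0.35 ± 0.28 SE, edgeR adjusted p = 1.00), in a comparison where 13.1% of all genes did not overlap. The difference between the CKO effects of the lines was tested directly, and edgeR called no subunit or other gene (percent called 0 of 16326). The unadjusted edgeR p was under 0.05 for 366 genes (2.24%). DESeq2 called 5 genes higher and 12 lower and limma voom none, again without a subunit. The largest difference of a subunit was -0.91 ± 0.66 (SE, Phf1), and the smallest adjusted p of any subunit was 1.00.

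**Figure D2:**
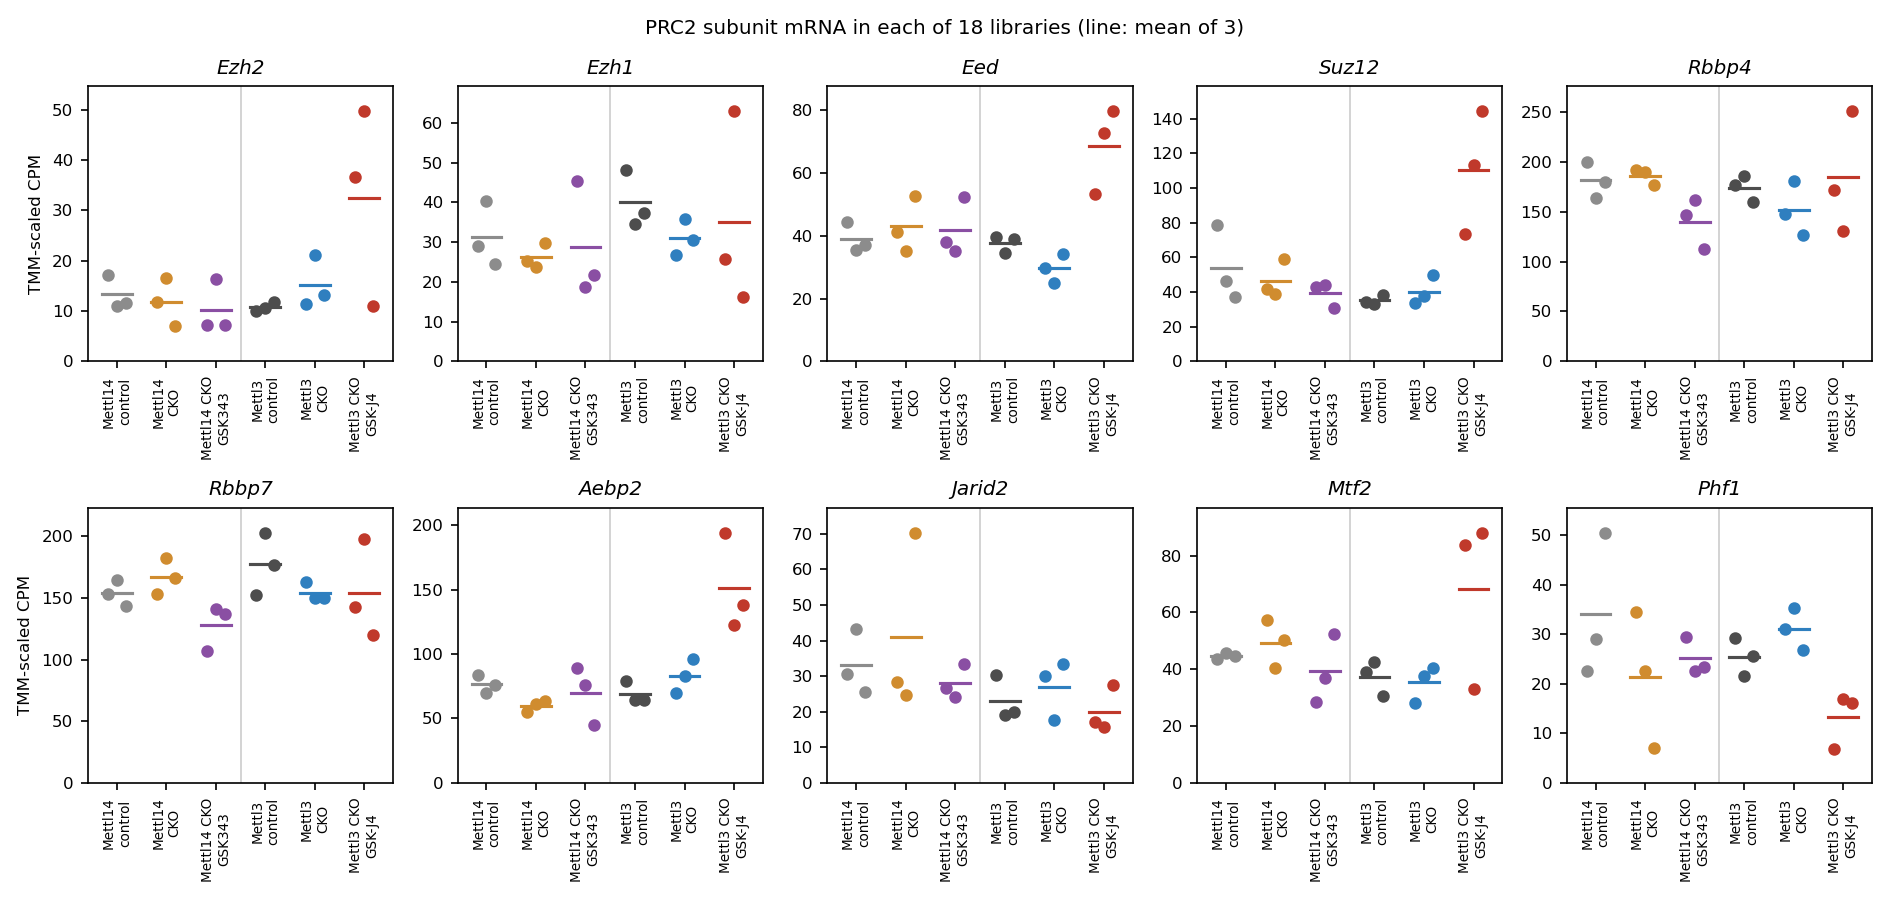
Level of the 10 PRC2 subunits in each of the 18 libraries, as TMM-scaled CPM on linear axes from 0, with the mean of each group of 3 as a line. The GSK-J4 points of Eed (53.2 to 79.8 CPM) and Aebp2 (122 to 194 CPM) lie above every other library, and those of Suz12 (73.4 to 144 CPM) above every other library of the Mettl3 line.

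Under GSK343, the inhibitor of EZH2, the mRNA of its target was not called. Ezh2 stood at 7.25, 16.3 and 7.28 CPM in the GSK343 libraries, within the range of the Mettl14 CKO libraries without inhibitor (log2 -0.19, 95% interval -1.23 to 0.86). Ezh1, its less active paralog that predominates in non-dividing cells, read 45.5, 18.8 and 21.8 CPM with GSK343 and 25.3, 23.7 and 29.9 without (log2 0.18, 95% interval -0.59 to 0.95). No subunit was called against the CKO libraries (4 of 13882 genes called, 0.0288%) or against the controls (23 genes, 0.166%), and none had an unadjusted p under 0.05. In these comparisons no subunit was called by DESeq2 or limma voom either. The medians over the 10 subunits were -0.19 against the CKO libraries and -0.25 against the controls, beside -0.03 and -0.01 for all genes; these comparisons share the GSK343 libraries.

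The subunits whose groups did not overlap under GSK343 were the histone-binding pair. Rbbp4 stood at 147, 161 and 112 CPM with GSK343, at 192, 190 and 177 in the CKO libraries and at 200, 164 and 180 in the controls. Rbbp7 stood at 107, 141 and 137 CPM with GSK343, at 153, 182 and 166 in the CKO libraries and at 153, 164 and 144 in the controls. All 3 GSK343 libraries were therefore below all 6 other libraries of the line for both genes, by small margins against the controls. The log2 changes against the CKO libraries were -0.40 ± 0.22 SE for Rbbp4 (unadjusted p = 0.0835 by edgeR, adjusted p = 0.921) and -0.39 ± 0.22 SE for Rbbp7 (unadjusted p = 0.0955, adjusted p = 0.922), so neither passed the test. Groups without overlap were found for 9.80% of all genes against the CKO libraries and for 11.5% against the controls.

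GSK-J4, the KDM6 inhibitor, was the condition in which core subunits rose. Against the libraries labelled Mettl3 CKO without inhibitor, Suz12 rose by 1.48 ± 0.30 (log2 ± SE, edgeR adjusted p = 0.00784). Eed rose by 1.24 ± 0.29 (adjusted p = 0.0169) and Aebp2 by 0.90 ± 0.24 (adjusted p = 0.0313). On the linear scale these were 2.80-fold, 2.36-fold and 1.87-fold. No subunit was called lower. GSK-J4 changed much of the transcriptome: 13.0% of 16782 genes were called, 3.96% as higher, and 3 of the 10 subunits stand beside that share. Of the subunits 5 had an unadjusted p under 0.05, beside 28.5% of all genes. The median over the subunits was 0.60, against -0.06 over all genes, and 8 of 10 changes were above 0.

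Promoter sequences of the 3 genes that rose are shown with that of Ezh2, so that the promoter words of genes that rose together can be compared. They are the 250 bases before a transcription start listed in RefSeq (GRCm38.p6), read along the gene's strand. Capitals mark the core word bound by E2F factors (TTCCCGC or TTCGCGC or TTGCCGC or TTGGCGC, on either strand) and the CCAAT box (CCAAT, on either strand). Suz12 lies at chr11:79992856-79993105 (plus strand), Eed at chr7:89980977-89981226 (minus), Aebp2 at chr6:140624659-140624908 (plus; the entry with the highest GC content of its 3) and Ezh2 at chr6:47595031-47595280 (minus).
Suz12: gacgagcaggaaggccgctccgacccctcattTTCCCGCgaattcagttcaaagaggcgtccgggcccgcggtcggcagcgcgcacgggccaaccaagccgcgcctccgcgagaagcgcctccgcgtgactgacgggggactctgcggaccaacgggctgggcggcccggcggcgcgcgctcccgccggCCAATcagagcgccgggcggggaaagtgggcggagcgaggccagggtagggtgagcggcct
Eed: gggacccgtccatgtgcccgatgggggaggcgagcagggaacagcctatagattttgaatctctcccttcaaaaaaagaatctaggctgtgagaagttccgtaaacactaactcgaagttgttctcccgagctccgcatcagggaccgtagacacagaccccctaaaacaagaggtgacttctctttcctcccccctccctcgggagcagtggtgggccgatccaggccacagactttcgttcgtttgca
Aebp2: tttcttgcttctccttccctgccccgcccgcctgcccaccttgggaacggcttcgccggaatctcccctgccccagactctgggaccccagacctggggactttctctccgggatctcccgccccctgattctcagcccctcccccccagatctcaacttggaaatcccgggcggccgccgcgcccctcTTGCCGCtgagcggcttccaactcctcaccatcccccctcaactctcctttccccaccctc
Ezh2: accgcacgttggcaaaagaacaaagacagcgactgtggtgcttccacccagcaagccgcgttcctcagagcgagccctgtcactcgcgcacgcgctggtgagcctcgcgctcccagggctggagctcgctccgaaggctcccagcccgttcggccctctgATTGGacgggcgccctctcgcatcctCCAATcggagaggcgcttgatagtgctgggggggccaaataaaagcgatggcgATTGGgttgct

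Suz12 held 1 E2F core word and 1 CCAAT box, the printed Aebp2 window held 1 E2F core word, Ezh2 held 3 CCAAT boxes and Eed held neither. The Ezh2 window lies inside Ezh2 as annotated in GENCODE M21 (chr6:47530139-47595341), and the Eed window reaches into Eed (chr7:89954654-89980983). The printed Aebp2 window also lies inside its annotated gene (chr6:140622663-140678472). The Aebp2 entry that ends at the annotated start (chr6:140622413-140622662) held neither word, with 46.4% GC and 1 CpG. The remaining Aebp2 entry (chr6:140626635-140626884) held 1 CCAAT box and no E2F core word, with 50.8% GC and 3 CpG. Of the 14 RefSeq entries of the 10 subunits, 3 held an E2F core word (in Suz12, Aebp2 and Rbbp4) and 7 a CCAAT box. Among 32851 mouse promoters of this length, 7.89% held an E2F core word and 33.9% a CCAAT box. The windows of Suz12 and Ezh2 had 37 and 23 CpG dinucleotides and those of Eed and the printed Aebp2 entry 12 and 14, against a median of 6 over all promoters. These matches describe letters only; neither word was found in the printed windows of all 3 genes that rose.

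The rise of Suz12 was visible in every library. It stood at 73.4, 114 and 144 CPM with GSK-J4, at 33.7, 37.4 and 49.6 in the CKO libraries and at 34.5, 32.9 and 38.3 in the controls. The lowest GSK-J4 library was above the highest of the 6 other libraries of the line. Against the controls the change was 1.68 ± 0.30 (log2, SE; edgeR adjusted p = 0.00449). Without Mettl3 CKO replicate 1 the call against the CKO libraries was lost (log2 1.36, adjusted p = 0.0519), as it was without replicate 2 (1.31, 0.0677); the call against the controls held when any one GSK-J4 or control library was left out.

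Eed behaved likewise against the CKO libraries and less firmly against the controls. It stood at 53.2, 72.6 and 79.8 CPM with GSK-J4, above the 29.8, 25.1 and 34.1 CPM of the CKO libraries and the 39.6, 34.6 and 39.0 CPM of the controls. The change against the controls was 0.89 ± 0.29 (log2, SE) and was not called (edgeR adjusted p = 0.0682). Leaving out Mettl3 CKO replicate 1, 2 or 3 raised its adjusted p against the CKO libraries to 0.0797, 0.122 and 0.0531.

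Aebp2 read 194, 122 and 138 CPM with GSK-J4, 69.5, 82.6 and 96.0 in the CKO libraries and 79.3, 64.1 and 64.3 in the controls. It was also called against the controls, at 1.16 ± 0.24 (log2, SE; edgeR adjusted p = 0.0104). Its call against the CKO libraries was lost without any one of the 3 CKO libraries (adjusted p from 0.0642 to 0.164) and without GSK-J4 replicate 1, where the change was 0.55 (adjusted p = 0.128). Its call against the controls was lost without control replicate 2 (adjusted p = 0.0553) or 3 (0.0645). When only the GSK-J4 and CKO libraries were fitted, Suz12 alone of the subunits was called, with Eed at an adjusted p of 0.0618 and Aebp2 at 0.0779.

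Neither catalytic subunit passed the edgeR test with GSK-J4 in the fit of the 9 libraries of the line. For Ezh2 that call varied with the method and with the libraries fitted. Ezh2 stood at 36.6, 49.7 and 10.95 CPM with GSK-J4, so replicates 1 and 2 exceeded all other libraries of the study and replicate 3 lay within the control range. The log2 change was 1.12 ± 0.57 SE against the CKO libraries (edgeR adjusted p = 0.222) and 1.61 ± 0.58 SE against the controls (adjusted p = 0.0976). Against the controls, with every library kept, DESeq2 called it higher at 1.70 (adjusted p = 0.0186), as did edgeR fitted on all 18 libraries at 1.58 (adjusted p = 0.0477). Without GSK-J4 replicate 3 edgeR called it in both comparisons, at 1.41 (adjusted p = 0.0388) and 1.90 (adjusted p = 0.00980). Ezh1 stood at 25.9, 63.0 and 16.1 CPM, with replicate 2 above and the other two below every CKO library (26.9, 35.8 and 30.6), and its change was 0.21 ± 0.46 SE (adjusted p = 0.810).

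The balance of the catalytic paralogs can be read within each library, free of library scaling. The log2 ratio of Ezh2 to Ezh1 counts averaged -1.87 ± 0.34 (SD, n = 3) in the Mettl3 controls, -1.07 ± 0.26 in the CKO libraries and -0.13 ± 0.56 with GSK-J4. These 3 groups did not overlap: the controls ran from -2.27 to -1.65, the CKO libraries from -1.23 to -0.76 and the GSK-J4 libraries from -0.55 to 0.50. For the levels of single genes, CKO and control libraries were without overlap in 13.1% of genes and GSK-J4 and CKO libraries in 33.2%; no such share was computed for ratios of genes. With 3 libraries against 3 an exact permutation test cannot go below p = 0.1, so the ratio is given without one. In the Mettl14 line the ratio averaged -1.24 ± 0.58 in the controls, -1.24 ± 0.80 in the CKO libraries and -1.48 ± 1.22 with GSK343, and all 3 groups overlapped. GSK343 replicate 1 held 145 counts of Ezh2 for 909 of Ezh1, and replicate 2 held 177 for 205. The log2 ratio of Rbbp4 to Rbbp7 averaged between -0.04 and 0.24 in the 6 groups. It ranged from -0.60 to 1.07 within the GSK-J4 group alone.

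**Figure D3:**
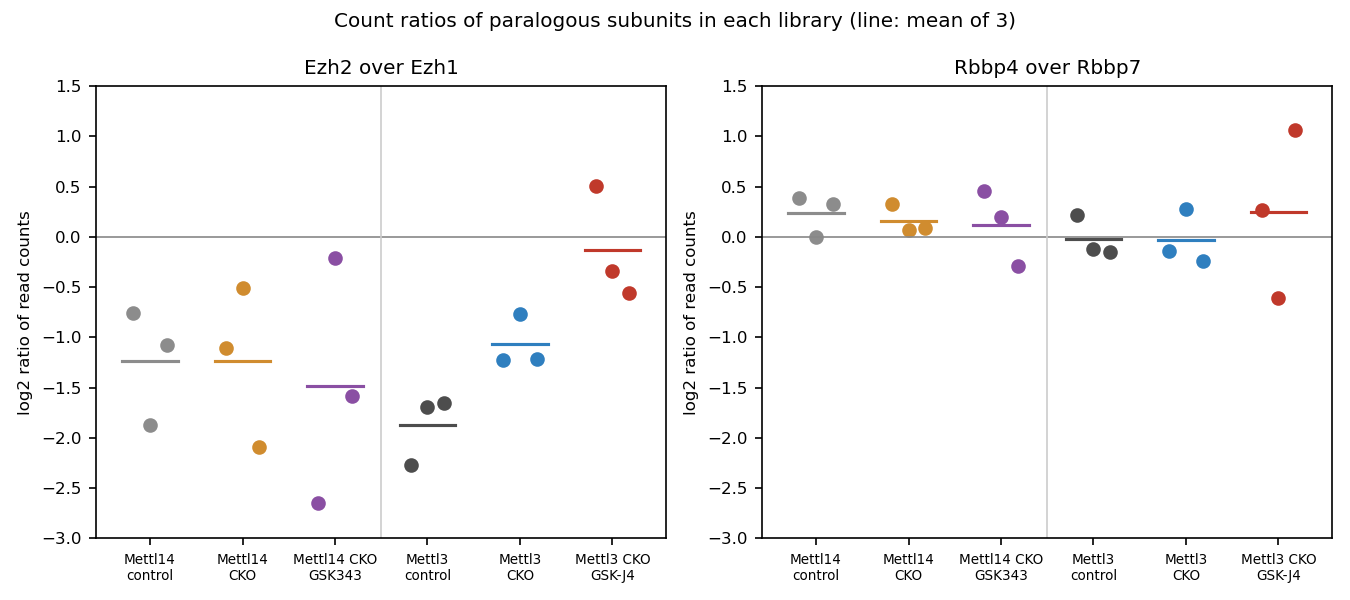
Log2 ratio of raw counts of Ezh2 to Ezh1 (left) and of Rbbp4 to Rbbp7 (right) in each library, with the mean of each group of 3 as a line. In the Mettl3 line the Ezh2 to Ezh1 ratio stands at -2.27 to -1.65 in the controls, -1.23 to -0.76 in the CKO libraries and -0.55 to 0.50 with GSK-J4.

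Among the subunits that define the alternative forms of PRC2, the Polycomb-like proteins pointed in opposite directions with GSK-J4 and neither passed the test. Mtf2 stood at 83.7, 33.2 and 88.1 CPM, against 28.1, 37.5 and 40.5 in the CKO libraries (log2 0.97 ± 0.38 SE, edgeR adjusted p = 0.117); replicates 1 and 3 were the high ones and replicate 2 lay among the CKO values. Phf1 stood at 6.83, 17.0 and 16.1 CPM, below the 31.0, 35.2 and 26.9 CPM of the CKO libraries and the 29.3, 21.6 and 25.6 CPM of the controls without overlap (log2 -1.19 ± 0.45 SE against CKO, adjusted p = 0.110). DESeq2 called both against the CKO libraries (adjusted p = 0.0486 for Mtf2 and 0.0465 for Phf1), and Phf1 was called by edgeR without GSK-J4 replicate 3 (adjusted p = 0.0470). Without GSK-J4 replicate 2, the low one, edgeR called Mtf2 higher against CKO (log2 1.29, adjusted p = 0.0114) and against the controls (1.21, adjusted p = 0.0166). Of the exon bases of Phf1, 39.3% are shared with other genes, mostly Cuta on the opposite strand, so its counts are uncertain without the strand setting. Jarid2, which helps bring the complex to its sites, read 17.1, 15.6 and 27.4 CPM with GSK-J4 and 30.1, 17.8 and 33.3 in the CKO libraries (log2 -0.41 ± 0.45 SE, adjusted p = 0.588). Rbbp4 (log2 0.31 ± 0.25 SE) and Rbbp7 (0.03 ± 0.22 SE) overlapped between the groups, and Rbbp4 shares 18.1% of its exon bases with other genes.

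In all, 4 of the 10 subunits had groups without overlap between GSK-J4 and CKO libraries, where 33.2% of all genes did, and the same 4 (Eed, Suz12 and Aebp2 higher, Phf1 lower) against the controls, where 33.7% did. Against the controls 2 subunits were called, Suz12 and Aebp2, beside 11.4% of all genes called and 3.16% called higher; these comparisons share the GSK-J4 libraries. The same 3 subunits were called against the CKO libraries after every library of the line was thinned to 3395675 counts.

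**Figure D4:**
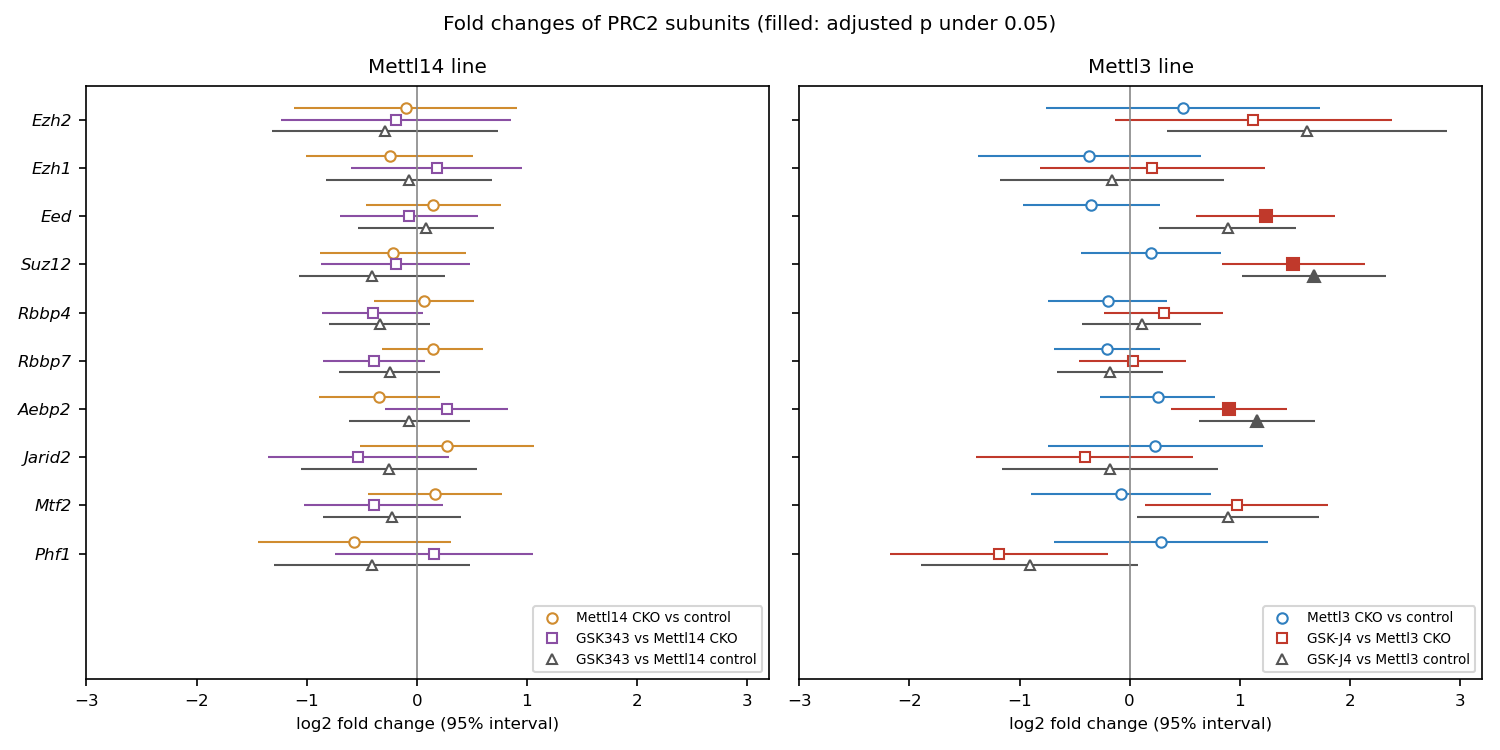
Log2 fold change of each PRC2 subunit with its 95% interval in the 3 comparisons of the Mettl14 line (left) and of the Mettl3 line (right). Filled symbols have an adjusted p under 0.05. Filled symbols appear only for Suz12, Eed and Aebp2 with GSK-J4, from 0.90 to 1.68.

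The GSK-J4 libraries differed from the rest in other measures that moved with these results. Their total counts were 3395675 to 8289423, against 17544904 to 32540164 in the CKO libraries of the line. Mitochondrial mRNA made up 0.174 ± 0.0666% of their counts and 2.12 to 2.98% on average in the other groups. The summed level of the 11 mesenchyme markers was 9307 to 16745 CPM with GSK-J4 against 32100 to 35907 in the CKO libraries, and that of the 4 epithelial markers 12.7 to 125 against 1.12 to 10.4. The 4 endoderm markers summed to 6.34 to 12.8 CPM against 0 to 0.95, and no listed marker was at 0 in all 18 libraries. The blood markers (9.60 to 19.5 against 0 to 2.59 CPM) and cardiac muscle markers (9.76 to 46.8 against 1.70 to 4.84) also stood higher. Most genes of these higher lists had a median under 1 CPM over the 18 libraries. The ectoderm markers stood lower, at 53.5 to 64.4 against 140 to 182 CPM, and the stem cell, mesoderm and endothelium lists overlapped. The summed level of 25 proliferation genes overlapped (284 to 452 against 312 to 415 CPM). The biological coefficient of variation within the GSK-J4 group was 1.22, against 0.324 to 0.621 in the other groups, which the fit pools into one spread. Of 5 housekeeping genes, Tbp rose by 1.23 ± 0.31 and Hprt by 0.91 ± 0.27 (log2, SE; edgeR adjusted p = 0.0231 and 0.0493), while Actb fell by 1.01 ± 0.17 (adjusted p = 0.00292). The part of these differences in the rise of Suz12, Eed and Aebp2 was not tested. In bulk RNA, fewer cells of a type and less RNA per cell cannot be told apart.

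The inhibitors were compared as the GSK343 effect in the Mettl14 line minus the GSK-J4 effect in the Mettl3 line, a contrast in which inhibitor and line cannot be told apart. In this contrast 10.2% of 16326 genes were called, and 1 of the 10 subunits stands near that share. The only subunit called was Suz12, at -1.66 ± 0.46 SE (log2, edgeR adjusted p = 0.0224). Eed was close to it (-1.27 ± 0.41 SE, adjusted p = 0.0526) and Mtf2 less so (-1.32 ± 0.49 SE, adjusted p = 0.0952). For Ezh2 the difference was -1.28 with a 95% interval from -2.90 to 0.34, which does not show that the effects were alike. Of the 10 differences 9 were below 0, with a median of -0.64 against 0.13 over all genes; with RLE size factors that last value was -0.01 and the median of the subunits -0.79. The call of Suz12 was lost without Mettl14 CKO replicate 3 (adjusted p = 0.0716), without Mettl3 CKO replicate 1 (0.0713) or 2 (0.0581), without the libraries under 2000000 counts (0.119) and with limma voom (0.0993).

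The control groups of the lines were also compared. No subunit was called, beside 0.913% of 16326 genes, none had an unadjusted p under 0.05, and DESeq2 and limma voom called none. Mtf2 alone had groups without overlap, with 43.5, 45.9 and 44.5 CPM in the Mettl14 controls and 39.1, 42.4 and 30.6 in the Mettl3 controls (log2 0.26 ± 0.34 SE), where 18.1% of all genes did. Suz12 was 0.62 ± 0.32 (log2, SE) higher in the Mettl14 controls, with overlapping libraries.

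The genes around PRC2 were followed as lists by role. Of 7 further PRC2 cofactors 5 were tested, and none was called in any of the 9 comparisons. The smallest adjusted p among them was that of Epop, a cofactor of the Polycomb-like form, at 12.96 ± 11.9 CPM with GSK-J4 and 3.03 ± 0.93 in the Mettl3 controls (log2 2.12 ± 0.89 SE, edgeR adjusted p = 0.148). All 3 genes of the KDM6 family were tested and none was called in any comparison. Kdm6b stood at 97.2 ± 23.0 CPM with GSK-J4 and 96.5 ± 18.7 in the CKO libraries, and Kdm6a at 30.1 ± 11.7 and 31.9 ± 10.1. Uty read lower with GSK-J4, at 9.74 ± 8.11 against 21.2 ± 3.99 CPM (log2 -1.08 ± 0.81 SE, edgeR adjusted p = 0.412). In the GSK343 comparison Kdm6b read 84.3 ± 8.81 and 84.5 ± 47.2 CPM. The mRNAs of the targets of both inhibitors, Ezh2 and the KDM6 genes, were thus not called in the libraries that received them.

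PRC1, which ubiquitinates histone H2A and binds H3K27me3, had 20 of 20 listed genes tested. Beside the list counts that follow, 13.0% of all genes were called with GSK-J4 against CKO and 11.4% against the controls. None was called against the CKO libraries with GSK-J4 (median -0.07), and 1 was called higher against the controls, Pcgf3 (log2 0.69 ± 0.20 SE, edgeR adjusted p = 0.0430). Among 9 methyltransferases of H3K36 and H3K4, marks that hinder PRC2, 1 rose and 1 fell with GSK-J4 against CKO. Nsd1 fell from 197 ± 47.9 to 49.7 ± 12.5 CPM (log2 -1.96 ± 0.25 SE, adjusted p = 0.000516) and Nsd2 rose from 30.1 ± 2.14 to 66.0 ± 27.8 CPM (1.16 ± 0.34 SE, adjusted p = 0.0453). Both enzymes methylate lysine 36. None of the 13 E2F factors and pocket proteins was called with GSK-J4, with E2f3 the closest (-1.73 ± 0.62 SE against CKO, adjusted p = 0.0897), and 1 of 25 proliferation genes rose, the replication helicase gene Mcm7 (1.51 ± 0.30 SE, adjusted p = 0.00758).

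RBBP4 and RBBP7 also belong to the NuRD and Sin3 deacetylase complexes, and RBBP4 to the histone chaperone CAF-1, and 17 partners from these 3 complexes were tested. With GSK-J4 against CKO, where 13.0% of all genes were called, 1 of the 17 rose and 3 fell, Chd3 (-1.97 ± 0.32), Chd4 (-0.83 ± 0.16) and Mta3 (-2.14 ± 0.46; log2, SE; edgeR adjusted p = 0.00225, 0.00732 and 0.0117). Chd3 and Chd4 are the remodelling ATPases of NuRD and Mta3 one of its scaffold proteins. Rbbp4 and Rbbp7 were not called in the same comparison.

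Of 30 developmental regulators known as PRC2 targets 23 were tested in the Mettl3 line. With GSK-J4 against CKO 4 fell and none rose, where 13.0% of all genes were called, and the median of the 23 was -0.93 against -0.06 for all genes. Wnt5a, a secreted signal, fell from 200 ± 22.1 to 30.4 ± 15.0 CPM (log2 -2.68 ± 0.33 SE, edgeR adjusted p = 0.000455), and the cell cycle inhibitor gene Cdkn2a fell from 122 ± 11.2 to 29.8 ± 6.31 CPM (-1.996 ± 0.24 SE, adjusted p = 0.000423). Against the controls, where 11.4% of all genes were called, 3 fell and 1 rose, Foxf1, a mesoderm transcription factor gene, from 1.18 ± 0.60 to 20.4 ± 10.6 CPM (4.13 ± 0.85 SE, adjusted p = 0.00990). With GSK343 none of the 21 tested was called in either comparison (medians -0.01 against CKO and 0.06 against control). Mesenchyme markers fell with GSK-J4 in the same libraries, as given above.

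The genes whose pattern lay nearest to that of Ezh2 and Ezh1 were found by the root mean square difference of centred log2(CPM + 1) over the 18 libraries, among 9008 protein-coding genes. For Ezh2 they were Nsmce3 (0.36), Agpat5 (0.38), Cdkn2aip (0.38), Ubr7 (0.40) and Zfp664 (0.40). For Ezh1 they were Hk1 (0.31), Crtc2 (0.32), Setdb1 (0.33), Dnajc11 (0.33) and Zc3h7a (0.33). No other subunit of PRC2 was among them. Over the 15 libraries without GSK-J4, none of the 5 nearest genes of Ezh2 was the same and 1 of those of Ezh1 was. No other set of libraries was left out of this measure.

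By position in GENCODE M21 (GRCm38), the subunits are scattered: Ezh2 (chr6:47530139-47595341) and Aebp2 (chr6:140622663-140678472) lie on chromosome 6, Ezh1 (chr11:101191115-101226463) and Suz12 (chr11:79993106-80034123) on chromosome 11, and Eed at chr7:89954654-89980983. Rbbp4 lies at chr4:129307100-129335370, Rbbp7 at chrX:162760402-162779092, Jarid2 at chr13:44729474-44921643, Mtf2 at chr5:108065674-108109004 and Phf1 at chr17:26933052-26937908. Apart from Phf1 and Rbbp4, the subunits share at most 6.93% of their exon bases with other genes, and Ezh1, Jarid2 and Aebp2 share none.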

How the data were processed

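RNA of 18 libraries (6 groups of 3) was analysed from deposited gene counts. Poly(A) RNA was selected and libraries were made with a SMARTer Stranded Total RNA-Seq kit, per the labels' protocols. The submitters' processing notes name CASAVA, Trimmomatic 0.38 for trimming, HISAT2 2.1.0 with the mm10 build, and HTSeq for the counting. The authors deposited raw counts per gene. The sources used here state neither the annotation release nor the strand setting. Of 54446 identifiers, 54409 matched GENCODE M21.

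Everything else was computed here. The 9 libraries of a line were fitted in edgeR 4.0.16 (R 4.3.3; genes kept by filterByExpr, TMM scaling, quasi-likelihood F test), and contrasts across lines on all 18, with Benjamini-Hochberg adjustment over all genes tested and calls at 0.05. The SE is the log2 change divided by the square root of F. Values with ± are mean and SD (n = 3) for levels. Total counts of 721853 to 32540164 give a floor of 3 counts at 4.16 to 0.0922 CPM, for counting error only. The biological coefficient of variation was 0.394 (Mettl14 line), 0.843 (Mettl3 line) and 0.664 (all). The other settings were DESeq2 1.42.0, limma 3.58.1 voom with quality weights, a replicate block, RLE scaling, genes of low count kept, only the 2 groups compared, all 18 libraries fitted, libraries thinned to equal depth, libraries under 2000000 counts left out, and each library left out; a fit without the GSK-J4 libraries was added after seeing the data. The scripts were tested on simulated data. The rule names all 10 subunits, up to 3 genes with the smallest p of each list and the 5 nearest genes of Ezh2 and Ezh1. The members and the lists were chosen with earlier results of these data known. Promoters come from RefSeq on GRCm38.p6.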

Additional observations from a re-analysis of the deposited data

Results flagged for a closer look

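The effect of the inhibitors on Suz12 differed between the lines by the test of the difference itself: the log2 change with GSK343 in the Mettl14 line minus that with GSK-J4 in the Mettl3 line was -1.66 ± 0.46 (SE; edgeR adjusted p = 0.0224). Suz12 was lower in 1 of 3 GSK343 libraries than in every Mettl14 CKO library and higher in 3 of 3 GSK-J4 libraries than in every Mettl3 CKO library. Over the settings other than leaving out a library, the adjusted p ran from 0.00235 to 0.119. The edgeR call was lost without Mettl14 CKO replicate 3 (adjusted p = 0.0716) and without Mettl3 CKO replicate 1 (0.0713) or 2 (0.0581). In this contrast 10.2% of 16326 genes were called, and 1 of the 10 subunits stands near that share. Inhibitor and line cannot be told apart.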

How the results depend on the processing

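In the comparisons of CKO with control, GSK343 with CKO or control, the CKO effects of the lines and the controls of the lines, no subunit was called in any setting run. With GSK-J4 against CKO, 3 subunits were called; DESeq2 called 5, and 1 was called without the low-count filter or with only the 2 groups fitted, where fewer samples enter. Leaving out one library gave 0 to 5. Against the control, 2 were called; DESeq2 called 4, the fit of all 18 libraries 4, and leaving out one library gave 1 to 3. For the difference of inhibitor effects, 1 was called; DESeq2 called 3, RLE size factors and thinned libraries 2 each, limma voom 0, the fit without the libraries under 2000000 counts 0, and leaving out one library gave 0 to 2. The cause of these shifts was not tested. With the replicate block, 2 subunits were called with GSK-J4 against CKO (Aebp2 was lost), 2 against the control and 1 for the difference of inhibitor effects. Whether the shared replicate numbers pair the libraries was not settled. Correlations of same-numbered deviations ran from -0.0847 to 0.0691, and no differently numbered libraries were set beside them.

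Over all genes, GSK-J4 against CKO called 664 higher and 1522 lower; DESeq2 called 1557 and 2123, RLE 800 and 1418, the replicate block 338 and 1069. Against the control the numbers were 531 and 1385, with DESeq2 1462 and 1979. The difference of inhibitor effects called 1355 and 313, with DESeq2 1574 and 739. GSK343 called 4 genes against CKO (DESeq2 34 higher and 22 lower, limma voom 13 and 6) and 23 against control (DESeq2 47 and 23, limma voom 51 and 14). The controls of the lines differed in 149 genes (DESeq2 220 and 66, limma voom 606 and 253, without the GSK-J4 libraries 315 and 84). Of 1410 alternative values, 1289 kept direction and side of the threshold, and no called value changed direction. Depth limits Ezh2 and Phf1 most, with as few as 5 and 8 counts in a library.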
